A study of Ovis aries with 30 samples.

Results

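The 6 genes described here, CTSB, CTSD, CTSK, CTSL, CTSS and LGMN, encode proteases of endosomes and lysosomes that take part in freeing thyroid hormone from its precursor protein. They were taken by name from a table of 28524 genes, and all 6 were in it. The table gave RNA-seq read counts for BAT (brown adipose tissue, sampled around the kidneys) and for thyroid tissue of 15 newborn Romney lambs. For 2 days, 6 lambs stayed at 4 °C (cold) and 6 at 20 to 22 °C (ambient temperature, AT), while 3 were sampled when the exposure of the others began (control). Both tissues of a lamb were sequenced. The cold and AT lambs were 2 days older than the controls at sampling, so age and treatment cannot be told apart in any comparison with the controls. Cold and AT lambs were of the same age. The study left the same control lamb out of both tissues, named Control 2 here. In the study's own numbering the 2 kept lambs are Control 1 and Control 2, and the latter is Control 3 here. The tests below used the other 2 controls, Control 1 and Control 3, and values with all 3 controls are given where they changed a result.

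Thyroid hormone is made on thyroglobulin, a large protein that thyrocytes secrete into the follicle, iodinate and store there. To release the hormone, the cells partly digest thyroglobulin in the follicle, take it up and cleave it further in lysosomes, and the freed hormone leaves through membrane transporters. Cathepsins B, K, L and S are cysteine proteases, cathepsin D is an aspartic protease, and legumain, the product of LGMN, cuts after asparagine and also processes other cathepsins. Most of these genes are active in many cell types: CTSK is known for collagen breakdown by osteoclasts, and CTSS for antigen processing in macrophages and other antigen-presenting cells.

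In the Oar_rambouillet_v1.0 coordinates of the count table, CTSB spans chr2:113890460-113911442 on the minus strand with 13 merged exons, and CTSL spans chr2:33620823-33626616 on the same strand with 8. CTSK (chr1:106507078-106520249) and CTSS (chr1:106466946-106491227) both lie on the minus strand of chromosome 1, each with 8 merged exons. CTSD spans chr21:51574849-51584195 on the plus strand with 9 merged exons, and LGMN spans chr18:57718465-57757252 on the minus strand with 14. None of the 6 shared an exonic base with another gene of the table. Reads over their exons were summed to 1 count per gene.

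Libraries held 31556500 to 37025998 counts in BAT and 25062784 to 30124871 in thyroid tissue. Leaving aside the genes LOC114112617 and LOC114115287, which took a large share of the reads in BAT, 8093700 to 18276329 and 18098434 to 26929601 counts were left. Levels are given as normalized counts, the reads divided by a size factor from the 3 reference genes of the study (ACTB, RPL19 and HUWE1). Markers of the labelled tissues were present: 14 thyrocyte markers summed to at least 1336100 normalized counts in every thyroid library and to at most 1902.5 in BAT, and 10 brown adipocyte markers reached at least 27177 in every BAT library. Several libraries stood apart. In thyroid tissue, skeletal muscle markers summed to 3537900 in AT 3 and 331910 in Control 1, against 4284 or less in the others, and parathyroid markers to 51396 in Control 2 against 2729 or less. The brown adipocyte markers summed to 23038 in the thyroid library of Control 2, against 11132 or less in the other thyroid libraries. In BAT, Control 2 had the highest sums of brown adipocyte markers (365300) and adrenal cortex markers (2747) and the lowest of endothelial markers (18760). In bulk tissue, fewer cells of a type and less RNA per cell cannot be told apart.

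All 6 genes passed the filter on low counts in both tissues, and their levels differed widely. Per kilobase of exon, on a scale shared by both tissues, CTSB was the most abundant of the 6 in thyroid tissue, with a median of 5724 normalized counts per kb over the 12 treated lambs (lowest 3690, highest 6678). CTSD was next at 1984 (lowest 1436, highest 2365), and the ranges of these 2 genes did not overlap. CTSK followed at 506.5, CTSS at 371 and LGMN at 156, and CTSL was lowest at 13.3. The range of CTSS, 253 to 810 normalized counts per kb, overlapped both that of CTSK (377 to 754) and that of LGMN (115 to 256), so the order of these neighbours is not fixed. In the controls, CTSB stood at 7752 and 16178 normalized counts per kb and was again the most abundant of the 6.

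In BAT the first 2 places were exchanged. CTSD led with a median of 3806 normalized counts per kb over the 12 treated lambs (lowest 2739, highest 7072), and CTSB was second at 899 (lowest 614, highest 1597). CTSK followed at 563, LGMN at 305, CTSS at 168 and CTSL at 29.5. Every pair of neighbours from CTSB down to CTSS overlapped, whereas the range of CTSD lay above that of CTSB and the range of CTSL (15.5 to 43.3) below that of CTSS (128 to 1034).

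In thyroid tissue, CTSB was downregulated in both treated groups against the controls, and CTSS was upregulated in the cold group. These were 2 of the 6 proteases in cold against control, where 19.3% of 16122 tested genes passed an adjusted p of 0.05, and 1 of 6 in AT against control, where 21% passed. Most genes that passed were lower in the treated lambs: 16.9% of all tested genes were lower and 2.36% higher in cold, and 18.8% were lower and 2.24% higher in AT. Both comparisons use the same control lambs and are not independent. The median log2FC (log2 fold change) was -0.26 over the 6 proteases and -0.28 over all tested genes in cold against control, and -0.51 and -0.28 in AT against control.

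**Figure D1:**
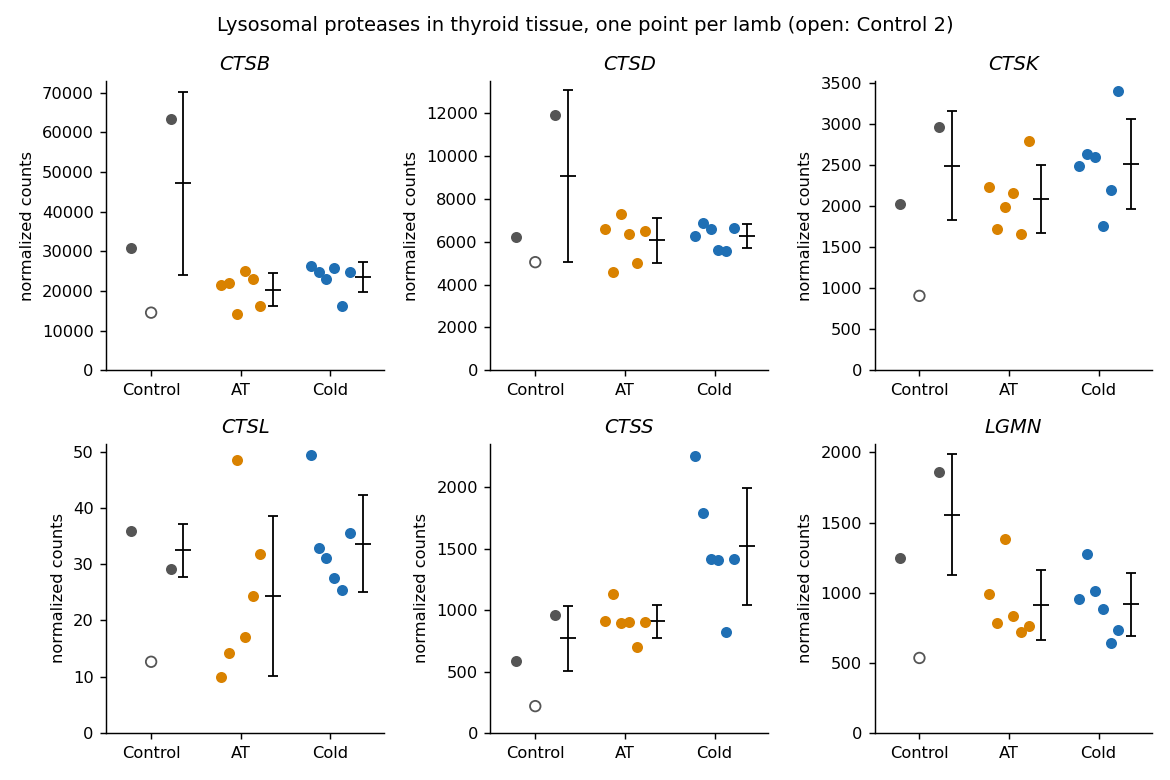
Normalized counts of the 6 proteases in thyroid tissue, 1 point per lamb, by group, with each panel on its own linear axis from 0. Bars show the mean and SD of the lambs in the test; the open circle is Control 2, which was not in it. The 2 control points of CTSB in the test, 30860 and 63431, lie above all 12 treated lambs, and 5 of 6 cold lambs lie above both such control points of CTSS.

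CTSB, the most abundant of these proteases in the thyroid, was at 30860 normalized counts in Control 1 and 63431 in Control 3, and at 14526 in Control 2. AT lambs ranged from 14231 through a median of 21818 to 25102, and cold lambs from 16122 through 24863 to 26212. All treated lambs lay below Control 1 and Control 3. Control 2 lay below every cold lamb and above only 1 AT lamb, AT 3, the library with muscle markers. The next AT lamb, AT 6, was at 16214. The log2FC was -1.005 ± 0.25 (SE) in cold against control (adjusted p = 0.0160) and -1.21 ± 0.25 in AT against control (adjusted p = 0.00562). Relative to the median of all tested genes, these differences were -0.72 and -0.93. CTSB was the only protease of the 6 without overlap between treated lambs and the 2 controls in the test. Such a gap was common: of all tested genes, 28.5% were below both controls in every cold lamb and 21.7% in every AT lamb.

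The size of the CTSB difference depended on Control 3. Without it, the log2FC was -0.38 (adjusted p = 0.590) in cold and -0.59 (adjusted p = 0.355) in AT. Without Control 1, which held muscle markers, it was -1.44 (adjusted p = 0.00264) and -1.64 (adjusted p = 0.000999). With all 3 controls CTSB passed in neither comparison, at -0.63 (adjusted p = 0.185) and -0.83 (adjusted p = 0.0825). With TMM scaling in place of the reference genes, it was -0.67 (adjusted p = 0.0979) in cold and -0.83 (adjusted p = 0.0463) in AT. The direction was the same in each of these fits. Over all 15 thyroid libraries, the size factor of Control 3 was 0.784 by the reference genes and 1.01 by TMM. A lower factor gives higher normalized counts for every gene of a library. The part of scaling in the CTSB level of Control 3 was not tested.

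CTSB and TG, the gene of its substrate thyroglobulin, had much the same pattern across thyroid libraries. TG was at 2639000 and 5344200 normalized counts in Control 1 and Control 3, from 1216200 to 2230000 in AT and from 1623400 to 2532600 in cold, so no treated lamb reached either control. Control 2, at 1559900, lay below every cold lamb and every AT lamb except AT 3, the library with muscle markers. The next AT lamb, AT 6, was at 1691700. The log2FC of TG was -0.90 ± 0.24 in cold (adjusted p = 0.0187) and -1.17 ± 0.23 in AT (adjusted p = 0.00464). In cold it did not pass with TMM scaling (-0.57, adjusted p = 0.114) or with all 3 controls (-0.58, adjusted p = 0.160), whereas in AT it passed with both (-0.79, adjusted p = 0.0385, and -0.84, adjusted p = 0.0477). Counted within each library, with no scaling involved, there were 1.17 and 1.19 CTSB reads per 100 TG reads in the 2 controls, 0.958 to 1.25 in AT and 0.914 to 1.27 in cold. The treated lambs thus lay on both sides of the controls. Control 2 had 0.931. TG also took 8.52% and 14.2% of all counts in Control 1 and Control 3 and 3.94% in Control 2, and 2.99% to 9.26% in treated lambs. The part of thyrocyte RNA content in the CTSB difference was not tested.

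Among 13030 genes of sufficient level, TG was the one whose pattern over the 14 thyroid libraries was nearest to that of CTSB. Likeness was measured as the root mean square difference of log2 levels after each gene was centred on its mean, and was 0.14 for TG against a median of 0.50 over all genes. EFNB1 (0.15) and STRBP (0.16) came next. The nearest of the other proteases was CTSD, at 0.39.

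**Figure D2:**
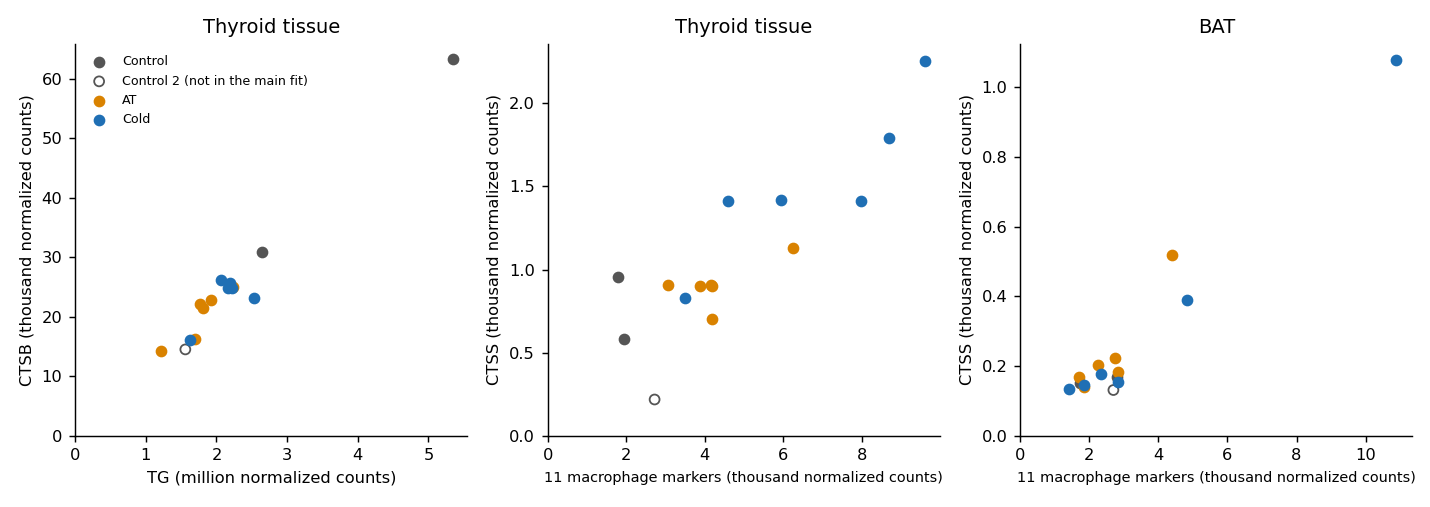
CTSB against TG in thyroid tissue (left), and CTSS against the summed level of 11 macrophage markers in thyroid tissue (middle) and BAT (right), 1 point per lamb, all in normalized counts on linear axes. CTSB rises with TG up to Control 3, which is highest for both, and Cold 4 is highest for both CTSS (1076.5) and the macrophage markers (10881) in BAT.

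CTSS, the protease best known from antigen-presenting cells, was at 582 and 958 normalized counts in Control 1 and Control 3, and at 218 in Control 2. AT lambs ranged from 700.5 through a median of 904 to 1130, and cold lambs from 826 through 1416 to 2255. In cold, 5 of 6 lambs lay above both controls in the test and Cold 5 lay between them. The log2FC was 0.98 ± 0.31 in cold against control (adjusted p = 0.0370) and 0.24 ± 0.29 in AT against control (adjusted p = 0.581). Relative to the median of all tested genes, these were 1.27 and 0.52.

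The 2 treated groups themselves were compared as well, since they differ in temperature alone by design. The log2FC of CTSS in cold against AT was 0.74 ± 0.20, with an unadjusted p of 0.00243 and an adjusted p of 0.907, so it did not pass, although 5 of 6 cold lambs lay above every AT lamb. In this comparison 0% of the 16122 tested genes passed by edgeR, and 870 (5.4%) had an unadjusted p under 0.05. By DESeq2's Wald test, the adjusted p of CTSS was 0.304. None of the other 5 proteases passed either, and their log2FC lay between 0.01 for LGMN and 0.48 for CTSL. The 95% interval of the difference ran from -0.16 to 0.58 for CTSB and from -0.26 to 0.35 for CTSD.

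The call of CTSS in cold against control was close to the threshold. It was lost without Control 1 (log2FC 0.66, adjusted p = 0.235), without Control 3 (1.40, adjusted p = 0.154) and without Cold 1, Cold 2 or Cold 6 (adjusted p = 0.0511, 0.0635 and 0.0542). It was also lost in a fit of these 2 groups alone (1.01, adjusted p = 0.0589) and with the RNA integrity number as a covariate (0.95, adjusted p = 0.0568). It held with TMM scaling (1.30, adjusted p = 0.0160) and with all 3 controls (1.37, adjusted p = 0.0196).

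Macrophage markers were higher in treated lambs too. The 11 macrophage markers in the table, none of them at 0 in all libraries, summed to 1783 and 1958 normalized counts in the controls in the test, to between 3059 and 6259 in AT and to between 3497 and 9604 in cold, with no overlap, and to 2725 in Control 2. Of all tested genes, 34.6% in cold and 27.3% in AT did not overlap with the 2 controls in the test, above or below them. The shares upregulated were 2.36% and 2.24%. Of the 11 markers, 6 were upregulated and none downregulated in cold, with a median log2FC of 1.43. In AT, 4 were upregulated and 1, CD14, downregulated, with a median of 1.44. The upregulated markers included C1QA, a subunit of complement C1q (2.98 ± 0.48 in cold, adjusted p = 0.00247), and CSF1R, the receptor that macrophages need for survival (1.41 ± 0.29, adjusted p = 0.00633). The lysosomal marker CD68 was at 0.01 ± 0.28 in cold (adjusted p = 0.977). Per 100 reads of these markers, CTSS had 29.7 and 53.7 reads in the controls, 16.8 to 29.7 in AT and 17.7 to 30.8 in cold. So 1 of 12 treated lambs, Cold 3, lay above the lower of these 2 controls, and Control 2 was at 8.01. The part of macrophage RNA in the CTSS difference was not tested. Of 10 fibroblast markers, 4 were upregulated in cold and 5 in AT. The genes nearest to CTSS in pattern over the 14 thyroid libraries were GNA15 (0.22), ALOX5 (0.29) and ITGAX (0.29), the last of them the integrin chain CD11c of macrophages and dendritic cells, against a median of 0.63 over all genes.

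LGMN and CTSD had lower means in treated lambs, but neither passed. LGMN, the asparagine-specific protease, was at 1250 and 1862 normalized counts in Control 1 and Control 3 and at 535 in Control 2, from 717 through 807 to 1380 in AT and from 640 through 921 to 1276 in cold. AT 3, the library with muscle markers, was the highest AT lamb, and Cold 2 was the highest cold lamb. Each of them lay between the controls in the test. The log2FC of LGMN was -0.76 ± 0.27 in cold (adjusted p = 0.0563) and -0.77 ± 0.27 in AT (adjusted p = 0.0510). By DESeq2's Wald test both passed (adjusted p = 0.0441 and 0.0386). Without AT 3 both also passed by edgeR (adjusted p = 0.0167 and 0.00596), and with all 3 controls neither did (-0.41 in both, adjusted p = 0.385 and 0.379). Without Control 3 the log2FC was -0.43 (adjusted p = 0.614) in cold and -0.44 (adjusted p = 0.588) in AT, and without Control 1 it was -1.03 (adjusted p = 0.0406) and -1.04 (adjusted p = 0.0370).

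CTSD, the aspartic protease, was at 6216 and 11898 normalized counts in Control 1 and Control 3 and at 5043 in Control 2. AT lambs ranged from 4579 through 6430 to 7307 and cold lambs from 5554 through 6437 to 6874, on both sides of Control 1. The log2FC was -0.53 ± 0.21 in cold (adjusted p = 0.0911) and -0.58 ± 0.21 in AT (adjusted p = 0.0652). It was 0.03 in cold and -0.02 in AT without Control 3, and -0.93 and -0.98 without Control 1 (adjusted p = 0.00782 and 0.00528). The nearest genes in pattern were LAMP1 (0.11), which encodes a main protein of the lysosomal membrane, GLMP (0.11), another protein of that membrane, and MAPK3 (0.12), against a median of 0.37.

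Neither CTSK nor CTSL passed in any thyroid comparison. CTSK was at 2023 and 2960 normalized counts in Control 1 and Control 3 and at 906 in Control 2, from 1654 through 2072 to 2788 in AT and from 1763 through 2544 to 3400 in cold. Its log2FC was 0.01 ± 0.24 in cold and -0.25 ± 0.23 in AT, and the second turned to 0.10 with TMM scaling. CTSL, at 29.1 and 35.8 normalized counts in these controls, ranged from 9.90 through 20.7 to 48.6 in AT and from 25.4 through 32.0 to 49.5 in cold. With counts this low the 95% interval of the CTSL log2FC ran from -0.90 to 0.9996 in cold and from -1.37 to 0.51 in AT. The 3 genes nearest to CTSK in pattern included SUMF1 (0.13) and HLTF (0.15), those nearest to LGMN were TIMMDC1 (0.15), WDR91 (0.17) and GPT2 (0.18), and those nearest to CTSL were NAMPT (0.40), SMS (0.41) and ANXA2 (0.42), less alike than for the other 5.

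**Figure D3:**
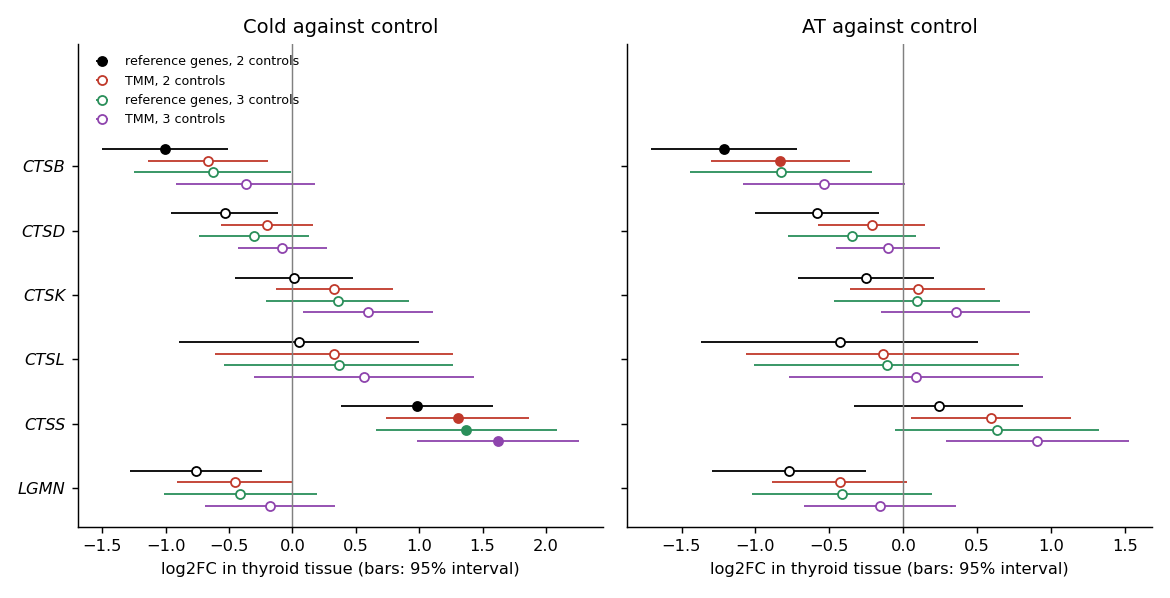
log2FC of the 6 proteases in thyroid tissue, cold against control (left) and AT against control (right), by reference-gene or TMM scaling and with 2 or 3 controls. Points are estimates and bars 95% intervals; filled points passed an adjusted p of 0.05. CTSB is below 0 in all 8 fits and passes in 3 of them, and CTSS passes in all 4 fits of cold against control.

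Other genes of the pathway were taken from lists of lysosomal and thyroid functions. Of all genes tested in thyroid tissue, 16.9% were downregulated and 2.36% upregulated in cold, and 18.8% and 2.24% in AT. Of 8 other cathepsins tested, cold against control had 1 upregulated and 2 downregulated, with a median log2FC of -0.24. CTSH, an aminopeptidase (-1.56 ± 0.27, adjusted p = 0.00280), and CTSC, which activates serine proteases of immune cells (-0.999 ± 0.23, adjusted p = 0.0101), were downregulated, and the carboxypeptidase CTSZ was upregulated (0.99 ± 0.27, adjusted p = 0.0218). In AT against control, CTSH (-1.88 ± 0.26) and CTSC (-1.21 ± 0.23) were downregulated again. Of 3 cystatins tested, which inhibit cysteine cathepsins, none passed in cold and CSTA was downregulated in AT (-1.79 ± 0.55, adjusted p = 0.0333), a call that TMM scaling did not give (-1.42, adjusted p = 0.120). With all 3 controls CTSC passed in neither comparison (-0.63, adjusted p = 0.148, and -0.84, adjusted p = 0.0602). Only 4 of the 5 cystatins listed and 8 of the 10 other cathepsins were in the table.

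In the lists for the other steps, the genes that passed with reference-gene scaling were all downregulated. The shares of all tested genes that were downregulated were 16.9% in cold and 18.8% in AT. Of 11 genes for mannose 6-phosphate sorting, which carries new enzymes to lysosomes, 5 were downregulated in cold and 6 in AT, with IGF2R (-1.71 ± 0.22, adjusted p = 0.00107) and M6PR (-1.05 ± 0.18, adjusted p = 0.00277), the receptors of this route, lowest by p in cold. Of 17 proton pump genes tested, which acidify the lysosome, 10 were downregulated in cold (median log2FC -0.71) and 13 in AT (median -0.82), among them ATP6V0A2 (-0.88 ± 0.17 in cold, adjusted p = 0.00469). Of 32 other lysosomal hydrolases, 7 were downregulated in cold and 11 in AT, led by NAGLU (-1.60 ± 0.26 in cold, adjusted p = 0.00245). Of 15 regulators of lysosomal genes, 9 and 10 were downregulated, among them the kinase gene MTOR (-0.93 ± 0.17 in cold, adjusted p = 0.00355). Of 20 lysosomal membrane and activator genes, 3 and 6 were downregulated, with CD63 at -0.82 ± 0.19 in cold (adjusted p = 0.0104).

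For uptake of thyroglobulin and export of hormone, 4 of 9 genes tested were downregulated in cold and 3 in AT. Of all tested genes, 16.9% and 18.8% were downregulated. The endosomal GTPase gene RAB5A was at -0.72 ± 0.15 in cold (adjusted p = 0.00744) and -0.96 ± 0.15 in AT (adjusted p = 0.00171). Of 13 thyrocyte markers tested, 3 were downregulated in cold and 4 in AT, among them TG and SLC5A5, the iodide transporter (-2.55 ± 0.80 in cold, adjusted p = 0.0428). With TMM, none of the 13 passed in cold and 1 in AT, and SLC5A5 was at -2.19 in cold (adjusted p = 0.0977). With all 3 controls 1 of the 13 was downregulated in cold, and SLC5A5 was at -2.01 there (adjusted p = 0.107).

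These counts changed both with the scaling and with the set of controls. Over all genes tested in thyroid tissue, TMM shifted the median log2FC from -0.28 to 0.02 in cold and from -0.28 to 0.05 in AT. With TMM, 8.87% of all tested genes passed in cold, 4.97% lower and 3.9% higher, and 8.73% passed in AT. The downregulated genes became 4 of 17 proton pump genes, 3 of 11 sorting genes, 2 of 32 hydrolases (with 3 upregulated) and 1 of 15 regulators in cold, and none of the 20 membrane and activator genes or of the 9 genes for uptake and export passed there. CD63 (-0.51, adjusted p = 0.0544) and RAB5A (-0.41, adjusted p = 0.0533) were among those whose call in cold was lost. With all 3 controls and the reference genes, where 17.4% of all tested genes passed in cold, the downregulated genes were 6 proton pump, 3 sorting, 2 hydrolase (none upregulated), 2 regulator, 2 membrane and activator, and 2 uptake and export genes. In AT with TMM, 4.7% of all tested genes were downregulated. From the same lists in this order, 3, 3, 3 (with 2 upregulated), 2, 2 and 1 were. In AT with all 3 controls, 13.7% of all tested genes were downregulated, and 6, 4, 4, 4, 2 and 2 from these lists.

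In BAT, none of the 6 proteases passed in cold against control, AT against control or cold against AT. The shares of all 14905 tested genes that passed were 1.48%, 9.18% and 0.309%. The median log2FC of the 6 was -0.01, 0.19 and -0.12, against -0.10, -0.03 and -0.05 over all tested genes. By unadjusted p, 1 of the 6 was under 0.05 by edgeR in cold against AT, as were 12.3% of all tested genes, and none in the other comparisons, and none of the 6 passed by DESeq2's Wald test.

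**Figure D4:**
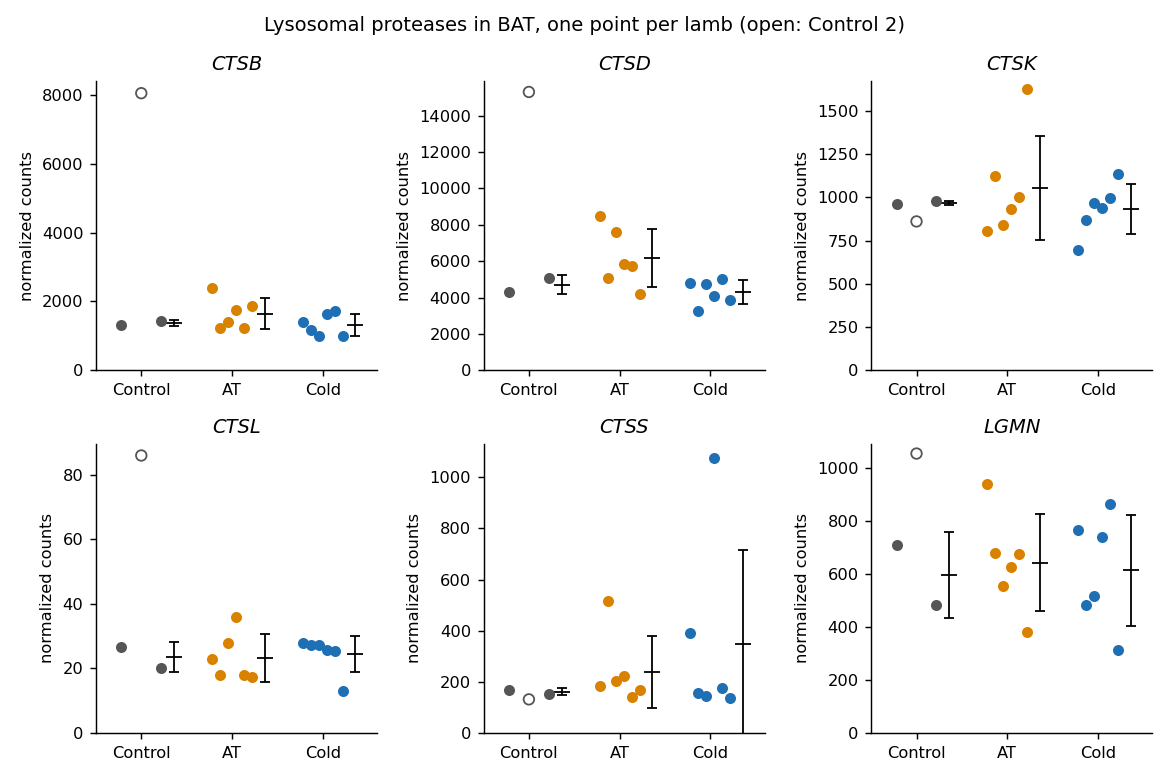
Normalized counts of the 6 proteases in BAT, 1 point per lamb, by group, with each panel on its own linear axis from 0. Bars show the mean and SD of the lambs in the test (the lower SD bar of CTSS in cold is cut at 0), and the open circle is Control 2, which was not in it and is highest for CTSB, CTSD, CTSL and LGMN.

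That 1 gene was CTSD, the most abundant of the 6 in BAT. It was at 4328 and 5080 normalized counts in Control 1 and Control 3, from 4189 through 5791 to 8474 in AT and from 3282 through 4425 to 5020 in cold. Of the 6 AT lambs, 5 lay above every cold lamb. The log2FC in cold against AT was -0.52 ± 0.18 (unadjusted p = 0.0115, adjusted p = 0.290), and it lay between -0.62 and -0.39 when 1 lamb at a time was left out. The log2FC was -0.13 ± 0.25 in cold and 0.39 ± 0.26 in AT against control.

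CTSB in BAT was at 1312 and 1432 normalized counts in the controls in the test, from 1226 through 1568 to 2389 in AT and from 988 through 1278 to 1722 in cold, so the groups overlapped. Its log2FC was -0.06 ± 0.28 in cold and 0.26 ± 0.28 in AT against control. In Control 2, whose BAT library stood apart in brown adipocyte, adrenal cortex and endothelial markers, CTSB was at 8061, CTSD at 15309 and CTSL at 86.1 normalized counts. Each was above every other BAT library, and the cause was not tested. With Control 2 added, the log2FC of CTSB in BAT was -1.42 in cold (adjusted p = 0.0676) and -1.08 in AT. LGMN was also highest there, at 1056.

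CTSS in BAT was low in most lambs and high in a few. It was at 151 and 170 normalized counts in the controls in the test, from 140 through a median of 193 to 518 in AT, and from 136 through 166 to 1076.5 in cold. AT 2, Cold 1 and Cold 4 stood at 518, 391 and 1076.5, above all other BAT libraries, which reached at most 224. The same 3 libraries had the highest sums of macrophage markers in BAT, at 4399, 4819 and 10881 normalized counts. Per 100 macrophage marker reads, CTSS had 5.47 to 11.8 reads in the 14 BAT libraries of the test, and 16.8 to 53.7 in the 14 thyroid libraries. The log2FC of CTSS was 1.11 ± 0.78 in cold and 0.58 ± 0.76 in AT against control, and that of cold against AT turned from 0.53 to -0.29 without Cold 4. Its nearest genes in pattern in BAT were PRKCB (0.19), CFD (0.29) and NCKAP1L (0.32), against a median of 0.90 over 12404 genes.

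CTSK, LGMN and CTSL had overlapping ranges in the BAT groups. CTSK was at 961 and 977 normalized counts in the controls, from 804 through 966 to 1626 in AT and from 694 through 952 to 1135 in cold. LGMN was at 483 and 711 in the controls, from 383 to 940 in AT and from 314 to 867 in cold. CTSL was at 20.3 and 26.7 in the controls, from 17.4 to 35.95 in AT and from 13.1 to 27.9 in cold. The 9 log2FC of these 3 genes lay between -0.18 and 0.12.

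Among the pathway lists in BAT, 3 of 32 other lysosomal hydrolases were upregulated in AT against control, ARSA (1.31 ± 0.29, adjusted p = 0.0132), LIPA (1.60 ± 0.40, adjusted p = 0.0225) and SGSH (0.87 ± 0.25, adjusted p = 0.0415), and none passed in cold. LAPTM5, a lysosomal membrane protein of blood cells, was upregulated in AT (1.31 ± 0.35, adjusted p = 0.0304). Downregulated were ABCB9, a peptide transporter of the lysosomal membrane, in cold (-1.11 ± 0.24, adjusted p = 0.0365), the amino acid transporter gene SLC7A5 in cold (-1.81 ± 0.29, adjusted p = 0.0113) and AT (-1.55 ± 0.30, adjusted p = 0.00709), and TFE3, a regulator of lysosomal genes, in AT (-0.58 ± 0.18, adjusted p = 0.0478). With all 3 controls ABCB9 in cold (-0.56, adjusted p = 0.412), LIPA in AT (0.99, adjusted p = 0.121) and TFE3 in AT (-0.46, adjusted p = 0.0710) did not pass. No other cathepsin, cystatin, proton pump or sorting gene passed in BAT in any of the 3 comparisons. Of all genes tested in BAT, 0.604% were upregulated and 0.872% downregulated in cold, and 3.09% and 6.1% in AT.

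The 2 tissues of each lamb were then compared on the scale shared by both. This scale rests on the 3 reference genes in both tissues. On it, the median log2FC of all tested genes, thyroid against BAT, was -0.06 in controls, -0.35 in AT and -0.33 in cold. CTSB was higher in thyroid tissue than in BAT in each of the 14 lambs of the test, by 3.19-fold to 17.6-fold (median 7.19-fold). CTSD was lower in thyroid tissue in all 14 lambs (median ratio 0.530, highest 0.931), and CTSL and LGMN were each lower in 13 of 14, with medians of 0.488 and 0.596. CTSS was higher in thyroid tissue in 12 of 14 lambs (median ratio 1.92), the exceptions being the lambs AT 2 and Cold 4 with high CTSS in BAT. CTSK was on neither side, higher in 6 of 14 lambs with a median ratio of 0.905. Control 2 differed from all 14 lambs, with a ratio of 0.699 for CTSB and 0.0570 for CTSL.

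**Figure D5:**
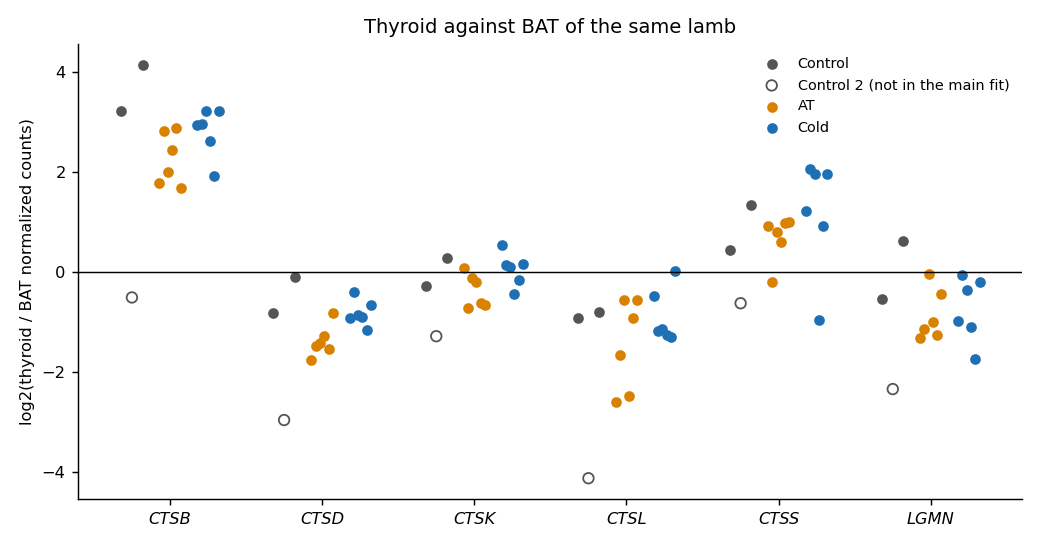
log2 ratio of the thyroid to the BAT normalized count of the same lamb for each protease, 1 point per lamb, with the line at 0 marking equal levels. All 14 lambs of the test lie above 0 for CTSB and below 0 for CTSD, and the open circle, Control 2, lies below 0 for all 6 genes.

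A gene was called different between tissues at an adjusted p of 0.05 with a log2FC of at least 1 in size. The main fit for these tests had no term for the lamb, so the pairing of tissues was not used. CTSB was the only one of the 6 to pass in all 3 groups. Its log2FC was 3.77 ± 0.39 in controls (adjusted p = 2.91e-08), 2.24 ± 0.21 in AT (adjusted p = 8.38e-10) and 2.79 ± 0.21 in cold (adjusted p = 1.65e-11). In AT, CTSD (-1.42 ± 0.17, adjusted p = 6.72e-08) and CTSL (-1.34 ± 0.32, adjusted p = 0.000822) passed as well. CTSL fell short of a log2FC of 1 in size with median-of-ratios scaling (-0.93) and with all 3 controls and TMM (-0.99). So 1 of 6 passed in controls, 3 of 6 in AT and 1 of 6 in cold, where 30.6%, 39.7% and 39.9% of 17021 tested genes did. CTSD in cold (-0.83 ± 0.17, adjusted p = 0.000123) and LGMN in AT (-0.88 ± 0.23, adjusted p = 0.00170) and in cold (-0.79 ± 0.23, adjusted p = 0.00416) had small p but log2FC under 1 in size. Relative to the median of all tested genes, CTSD was at -1.06 in AT and -0.49 in cold, and CTSL at -0.98 and -0.56. On the same basis, LGMN was at -0.53 and -0.46 and CTSB at 2.59 and 3.12. With the replicate block, the lamb as a term in a paired fit, CTSS in cold passed too (1.22, adjusted p = 0.00363, against 0.74 and 0.122 without it). With all 3 controls, CTSD (-1.40) and CTSL (-2.04) passed in the control group in addition to CTSB (2.04).

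Whether the response to treatment differed between the tissues was tested as an interaction in the same fit, again with no term for the lamb. For AT against control, CTSB differed by -1.53 ± 0.41 (thyroid minus BAT, adjusted p = 0.0489), 1 of 6 proteases where 1.71% of tested genes passed. CTSD was next at -1.02 ± 0.34 (adjusted p = 0.106). The CTSB value was at the threshold: the replicate block gave -1.42 (adjusted p = 0.0849), and with all 3 controls it turned to 0.17. It also did not pass in 12 of the 14 fits that left out 1 lamb. For cold against control, CTSB was at -0.98 ± 0.40 (adjusted p = 0.329) and none of the 6 passed, where 0.182% of tested genes did. For cold against AT none of the 6 passed by edgeR, where 0% of tested genes did. Of all tested genes, 1340 (7.87%) had an unadjusted p under 0.05. CTSD was the 1 protease with an unadjusted p under 0.05 there by edgeR (0.59 ± 0.24, adjusted p = 0.508).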

How the data were processed

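The members and gene lists were chosen with earlier results of these data known. By the labels, mRNA was captured with oligo(dT) beads and sequenced as read pairs of 150 bases on the BGISEQ-500 platform. The authors trimmed reads with Trimmomatic 0.39, aligned them with STAR 2.7.7a to the Rambouillet genome and counted reads per gene with featureCounts of Subread 2.0.0, multi-mapping reads included, and deposited whole-number counts per gene without normalization. Whether counting used the strand is not given in the sources used here.

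Counts were tested as deposited by edgeR 4.0.16 in R 4.3.3, with robust quasi-likelihood fits and Benjamini-Hochberg adjustment over all tested genes, and size factors of the 3 reference genes from DESeq2 1.42.0. A gene was tested if 10 or more libraries each held 10 or more of its reads, which left 16122 in thyroid tissue, 14905 in BAT and 17021 in the fit of both tissues. SE is the log2FC divided by the square root of F. All p are 2-sided. The 2 controls were identified by proportional counts in the study's supplement, whose other values were not used except the RNA integrity numbers, as a covariate in an alternative. Lambs were numbered within groups in accession order. Libraries of a lamb share its animal number. Deviations from group means correlated between the tissues of a lamb by 0.0456 to 0.327 (median 0.222) over 14 lambs. No 2 libraries of a group agreed within sampling noise. Each library was counted as 1 sample.

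Named genes were the 6 proteases, TG, CD68 and CSF1R, up to 4 passing genes of lowest p per list, and the 3 genes nearest in pattern (in BAT given for CTSS). Some genes of the lists are not reported here by name. Genomic positions are those of the count table, with chromosome numbers assigned by shared gene names with a RefSeq table of another build. Only the edgeR test of cold against control in thyroid tissue was run on simulated data beforehand. Alternatives were TMM and median-of-ratios scaling, DESeq2's Wald test, all 3 controls, no filter or filterByExpr, fits of only 2 groups, RNA integrity as a covariate, the replicate block and leaving out each lamb. All 3 controls with TMM, and Control 2 in the place of Control 1 without AT 3, were added after seeing the data.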

Additional observations from a re-analysis of the deposited data

Results flagged for a closer look

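Of 24 groups of 6 lambs tested for 1 lamb far from the others by Dixon's ratio, 4 were marked, and chance marks about 1 in 20 groups. CTSB in thyroid tissue was lowest in Cold 5, at 16122 normalized counts with the next cold lamb at 23138. CTSL in BAT was lowest in Cold 6, at 13.1 with the next at 25.4. CTSS in BAT was highest in Cold 4, at 1076.5 with the next at 391, and in AT 2, at 518 with the next at 224, and both lambs also had high macrophage markers there. The part of these lambs' macrophage RNA in CTSS was not tested.

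The difference between thyroid tissue and BAT in the AT against control response of CTSB was also marked, at -1.53 on the log2 scale by the interaction test (thyroid lower). It rests on 2 controls and did not pass under several alternatives, nor in 12 of the 14 fits that left out 1 lamb.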

How the results depend on the processing

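The number of proteases passing in thyroid cold against control was 2, and 1 with TMM, with median-of-ratios scaling, with all 3 controls, with the RNA integrity number, with all 3 controls and TMM, and with Control 2 in the place of Control 1 without AT 3; it was 3 with DESeq2's Wald test, LGMN being added, and 2 in the fit of 2 groups, where CTSB and LGMN (-0.74, adjusted p = 0.0422) passed and CTSS did not; it ran from 0 to 3 when 1 lamb was left out. In thyroid AT against control it was 1, and 2 with DESeq2's Wald test, 0 with all 3 controls, with or without TMM, and 0 with Control 2 in the place of Control 1, with 0 to 3 on leaving out a lamb. In BAT cold against control it was 0, and 1 with all 3 controls and TMM and with the exchanged control, where CTSB passed (-1.62, adjusted p = 0.0457, and -1.81, adjusted p = 0.0355). Between tissues it was 3 instead of 1 in controls in the 3 settings with Control 2, and 2 instead of 1 in cold with TMM, median-of-ratios scaling, the replicate block, and all 3 controls with TMM, with 1 to 2 on leaving out a lamb. In AT it was 3, and 2 with median-of-ratios scaling and with all 3 controls and TMM, where CTSL was lost, and 4 with the exchanged control and without AT 3, where LGMN was added (-1.11 and -1.08). For the AT interaction it was 0 instead of 1 with TMM, median-of-ratios scaling, no filter, filterByExpr, the replicate block and the 3 settings with Control 2. It was also 0 in 12 of the 14 fits that left out 1 lamb.

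A log2FC that changed sign was taken as reversed unless both values lay within 1 SE of 0 without passing, as in 66 of 99 such changes among 1416 values. Values below are for all 3 controls, all 3 with TMM, and the exchanged control, in this order. CTSK in thyroid AT became 0.0938, 0.35 and 0.14, and 0.0975 with TMM and 0.0940 with median-of-ratios scaling (-0.51 to 0.0625 on leaving out a lamb). In BAT, CTSL in cold became -0.77, -0.93 and -1.03, CTSB in AT -1.08, -1.32 and -1.43, CTSD in AT -0.37, -0.58 and -0.74, and LGMN in cold -0.36 with all 3 controls and TMM. LGMN between tissues in controls became -0.61, -0.67 and -0.64. The interaction of CTSB became 0.75, 1.21 and 1.02 in cold and 0.17, 0.74 and 0.48 in AT, and that of CTSD 0.57, 0.96 and 0.72 in cold (-0.72 to 0.0025 on leaving out a lamb) and 0.43 and 0.12 in AT with the last 2. On leaving out a lamb, CTSD in thyroid cold ran from -0.93 to 0.0261 and CTSS in BAT cold against AT from -0.29 to 0.91. The replicate block changed no other call. The causes were not tested.

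With 2 controls, each decides a large share of every comparison with the treated groups. Lone lambs are assumed to vary like the other groups where 1 control was left. Low counts limit CTSL, at under 50 normalized counts in the 28 libraries tested on the scale of each tissue.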
